A study of Mus musculus with 2 samples.

Results

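Interferon-stimulated genes are genes that cells transcribe after an interferon binds its receptor. A list of 43 of them was followed in the RNA-seq data of bone marrow (BM) LSKs, the lineage-negative, Sca1-positive and c-Kit-positive cells that hold hematopoietic stem cells and early progenitors. The genes were picked by symbol, and all 43 were found among the 34745 genes of the tables. The list includes the 4 receptor subunits for type I and type II interferon, a transcription factor subunit, nucleic acid sensors and antiviral effectors.

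The LSKs came from Scl/tTA-BCR/ABL mice of the C57BL/6 strain, in which a tetracycline transactivator driven by Scl regulatory sequence switches on BCR/ABL1 (BA), the fusion kinase of chronic myeloid leukemia, when doxycycline is withheld. The week-0 library was made from mice kept on doxycycline and the week-3 library from mice 3 weeks after withdrawal, so both carry the same transgenes and differ in doxycycline and in the time of BA expression. Each library held LSKs of 3 mice mixed together, with 1 library per time point, so the spread between mice is unknown, no test of the time points is possible, and every comparison is between 2 libraries. The tables have no row named for the transgene, so BA itself was not measured here.

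Type I interferons (alpha and beta) bind the IFNAR1 and IFNAR2 receptor, and type II interferon (gamma) binds IFNGR1 and IFNGR2. Janus kinases on the receptors phosphorylate STAT proteins. STAT2 and IRF9 belong to the factor ISGF3, which binds the interferon-stimulated response element (ISRE), and the type II signal acts through the gamma-activated site (GAS). In the hematopoietic system, interferons can drive dormant stem cells into division, stem cells hold some interferon-stimulated genes at a high basal level, and Sca1, one of the markers LSKs are sorted by, is itself interferon-inducible.

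Reads counted on genes numbered 6356164 before BA induction (week-0) and 3886695 after it (week-3). A count of 3 reads, the floor of detection used here, equals 0.472 and 0.772 CPM (reads per 1000000 reads on genes). Of the sorting markers, Kit had FPKM 16.9 and 11.5 in the earlier and later library, and Ly6a, which encodes Sca1, had 19.8 and 14.8. FPKM is the number of fragments per kilobase of exon, scaled to the reads of the library. Markers of several cell types differed much between the libraries. In sum, the 9 neutrophil markers went from 3118 to 13650 CPM, the 9 mast cell and basophil markers from 388.3 to 4168, and the 9 monocyte and macrophage markers from 274.4 to 1140. Most reads of the neutrophil list lay on Elane, Mpo and Prtn3. They had 5454, 9443 and 3552 of its 19820 reads at week-0, and 18391, 18486 and 12505 of 53069 at week-3. The rise of the mast cell and basophil list lay mostly on Tpsb2, Cpa3 and Cma1. They had 0, 524 and 4 of its 2468 reads at week-0, and 5442, 4840 and 3361 of 16200 at week-3. Prss34 held 1300 of the week-0 reads and went the other way, with 380 reads at week-3 (log2 ratio -1.06). The 10 LSK and stem cell markers went from 2337 to 1013 CPM, the 5 plasma cell markers from 1099 to 244.9, and the 15 immediate early genes from 4.07% to 1.21% of all reads. Of the plasma cell list, Jchain had 5120 of 6986 reads at week-0 and 96 of 952 at week-3. Xbp1 had 1454 and then 837 of them, a log2 ratio of -0.09. In such bulk libraries, fewer cells of a type and less RNA per cell cannot be told apart.

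The promoters of these genes were searched for both elements. RefSeq promoters on GRCm38.p6 (300 bases, 250 of them before the start site) were found for 33 of the 43 genes, 38 promoters in all. The ISRE was searched on both strands as GAAANNGAAA, which reads TTTCNNTTTC on the other strand, and the GAS as TTCNNNGAA, which is its own reverse complement. The 2 motifs can overlap. The stretches around the ISRE matches are shown for every called gene with a match, all 5 of them lower at week-3 (Stat2, Isg15, Ifih1, Oas3 and Rsad2). They are also shown for 5 uncalled genes, those with most reads among uncalled genes with a match (Ifitm2, Ifitm3, Bst2, Gbp7 and Irgm1). Both sets of stretches can be read side by side. Each runs 5′ to 3′ on the strand of its gene, with up to 20 bases on each side and the match, or the joined matches, in capitals.
Stat2, chr10:128270256-128270305, plus strand: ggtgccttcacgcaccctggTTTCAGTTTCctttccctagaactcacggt
Isg15, chr4:156200855-156200916, minus strand: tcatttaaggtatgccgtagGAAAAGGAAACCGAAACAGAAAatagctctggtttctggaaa
Ifih1, chr2:62646206-62646243, minus strand: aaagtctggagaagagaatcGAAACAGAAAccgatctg
Oas3, chr5:120777705-120777754, minus strand: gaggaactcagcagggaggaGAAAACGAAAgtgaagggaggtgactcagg
Rsad2, chr12:26456543-26456592, minus strand: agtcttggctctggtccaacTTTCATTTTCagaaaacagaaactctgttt
Ifitm2, chr7:140955978-140956027, minus strand: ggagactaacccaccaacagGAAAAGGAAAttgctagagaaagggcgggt
Ifitm3, chr7:141010696-141010762, minus strand: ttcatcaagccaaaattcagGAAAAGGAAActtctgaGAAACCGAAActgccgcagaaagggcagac
Bst2, chr8:71537567-71537622, minus strand: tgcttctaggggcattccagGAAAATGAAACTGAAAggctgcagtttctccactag
Gbp7, chr3:142530263-142530312, plus strand: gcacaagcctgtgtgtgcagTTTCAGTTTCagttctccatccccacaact
Irgm1, chr11:48871415-48871470, minus strand: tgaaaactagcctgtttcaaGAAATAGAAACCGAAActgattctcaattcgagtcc

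In Isg15, 3 ISRE matches overlap in 1 run that begins 78 bases before the start site, and Bst2, Ifitm3 and Irgm1 hold 2 matches each. An ISRE was present in 20 of the 38 promoters (52.6%, in 19 genes), against 3.44% of all 32851 RefSeq promoters of the same length. A GAS was present in 11 of the 38 (28.9%), against 8.3% of all promoters. By call, an ISRE was found in 5 of the 11 genes with a promoter that were called lower, in neither of the 2 called higher (Ifitm1 and Ifngr2), and in 14 of the 20 others, of which Ifit3 had too few reads to compare. A match is a description of the letters in the window, not evidence of binding. Parp9, Parp14, Usp18, Dhx58, Oas2, Zbp1, Mx1, Mx2, Iigp1 and Rtp4 had no promoter in the table.

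**Figure D1:**
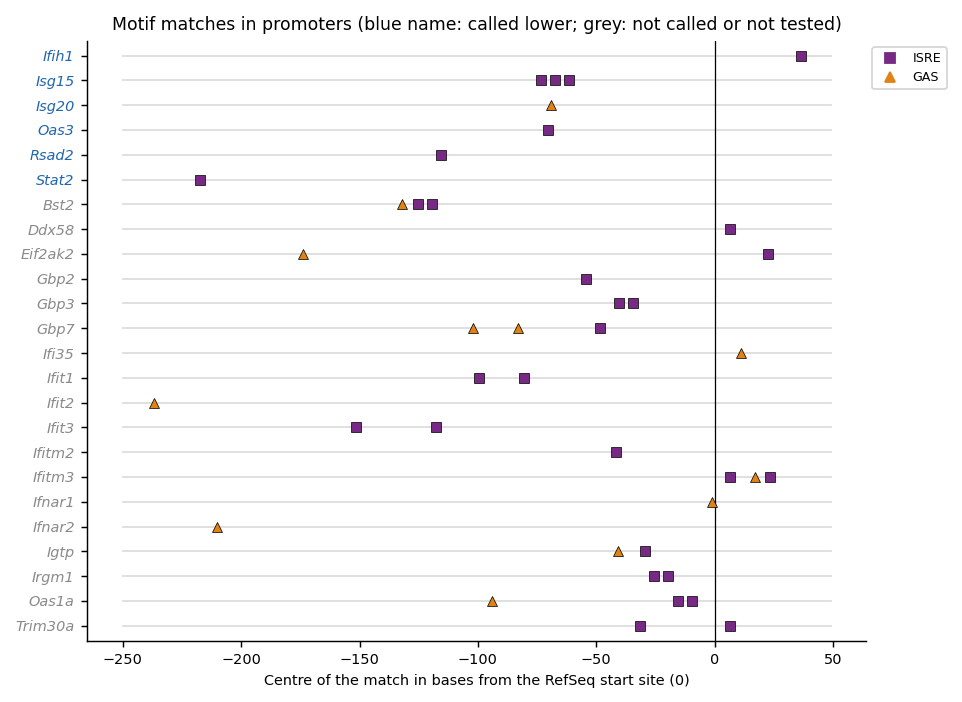
Positions of ISRE matches (squares) and GAS matches (triangles) in the promoters of the 24 genes that hold either, in bases from the RefSeq start site, with genes called lower at week-3 named in blue and the others in grey. Each grey line is 1 gene, with the matches of all its promoters on it. Matches of both colours of gene lie on both sides of the start site, and the 3 matches of Isg15 lie between 78 and 57 bases before it.

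A gene was called lower at week-3 when its FPKM was at most 0.5 times that at week-0, and higher when it was at least 2 times, in both cases with a 95% interval of the ratio that leaves out no change. The interval is the exact Clopper-Pearson interval from the reads and covers counting error only. Of the 43 genes, 42 had at least 10 reads over both libraries. Of these, 16 were called lower (38.1%), against 14.9% of all 13689 genes with that many reads, and 2 were called higher (4.76%), against 10.5%. The other 24 were called neither way. A log2 ratio below 0 was found for 34 of the 42 genes (81%), against 47.8% of all genes. The median difference in log2(FPKM + 0.1) was -0.74, against 0.05 over all genes. With Ifi44 and Iigp1, which had no reads at week-3, set at their bounds, the median log2 ratio was -0.75. Because the spread between mice is unknown, these calls rest on the depth alone. In edgeR's exact test on the reads, 15 genes were called lower when a biological coefficient of variation of 0.1 was assumed (against 13.6% of all genes), and 2 (Ifi44 and Iigp1) when 0.4 was assumed (against 1.42%).

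**Figure D2:**
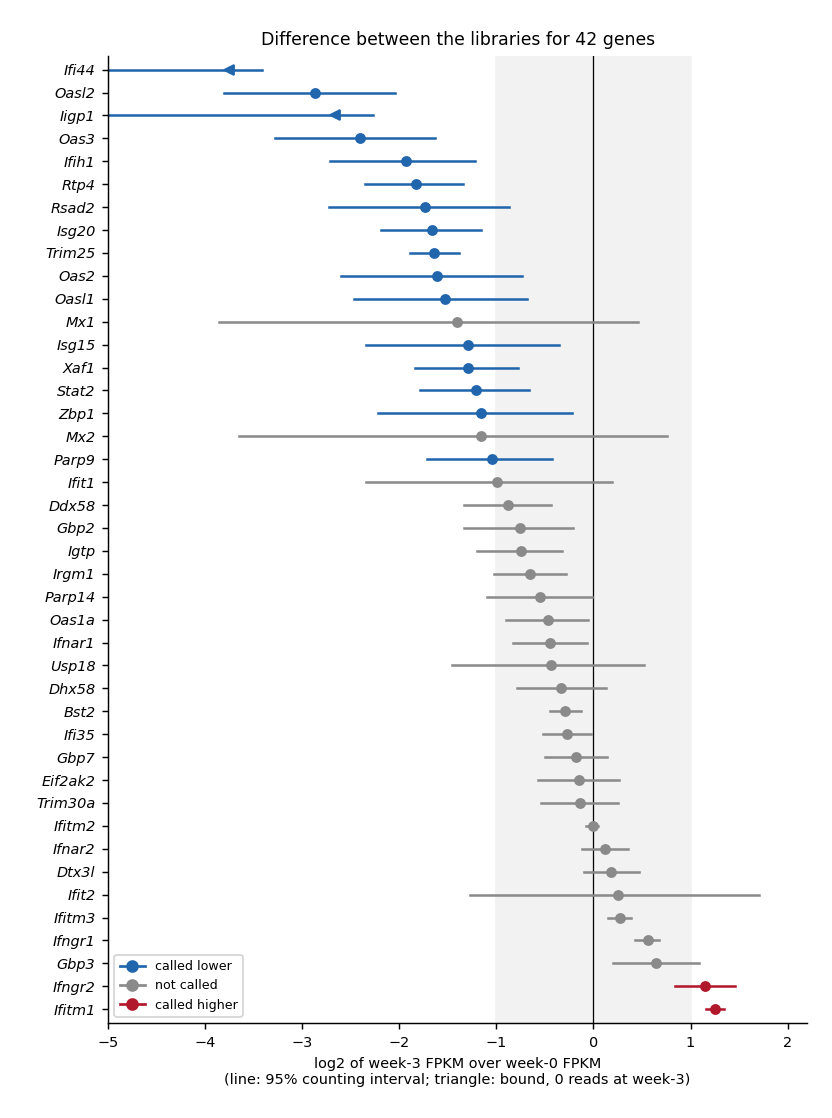
Week-3 FPKM over week-0 FPKM, as log2, for the 42 genes with at least 10 reads, in order of size, with 95% counting intervals as lines and bounds as triangles for the 2 genes without reads at week-3 (their lines run off the axis). The shaded band lies between ratios of 0.5 and 2. The 16 genes called lower (blue) lie between -3.75 and -1.05, and Ifngr2 and Ifitm1 (red) at 1.15 and 1.25.

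The 2 libraries spent a similar share of reads on the list as a whole. The 43 genes took 15544 reads at week-0, which is 2446 CPM (95% interval 2407 to 2484), and 10087 at week-3, which is 2595 CPM (2545 to 2646). With TMM scaling, the sums were 2513 and 2526 CPM. The sum was set by a few abundant genes. Ifitm1, Ifitm2 and Ifitm3 alone held 51.3% of these reads in the earlier library and 64% in the later one. Without them, the sum was 1191 CPM at week-0 and 933.2 at week-3. The 16 genes called lower took 381.7 CPM at week-0 and 116.3 at week-3, a fall that follows from how they were picked.

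The genes called lower were mostly weakly expressed. Of 17 genes with a mean FPKM under 2, 10 were lower (58.8%), against 20.2% of all genes at that level. Between 2 and 5 it was 2 of 10 (20%, against 13.8%), and between 5 and 20 it was 4 of 10 (40%, against 12.1%). Of the 5 genes at 20 or above, 0 were lower, against 9.46% of all genes. Those 5 are Ifitm2, Ifitm3, Ifitm1, Bst2 and Ifngr1.

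**Figure D3:**
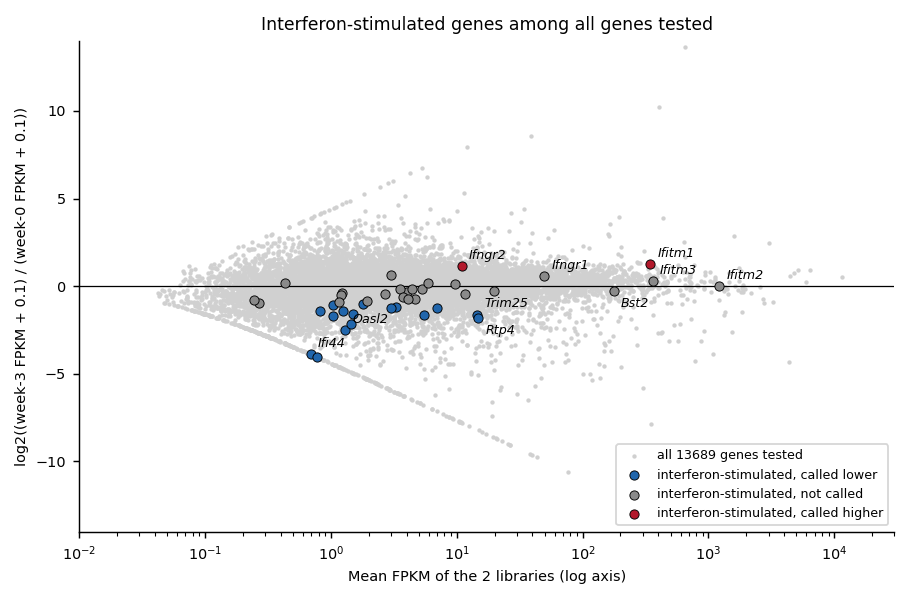
Difference in log2(FPKM + 0.1) between week-3 and week-0 against the mean FPKM of the 2 libraries (log axis) for all 13689 genes tested (light grey) and for the interferon-stimulated genes (large points, coloured by call). The genes called lower lie at mean FPKM under 20, while Ifitm1, Ifitm2, Ifitm3 and Bst2 lie to the right of them.

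The receptor subunits come first in the pathway, and 0 of the 4 were called lower. With 14.9% of all genes called lower, few calls are to be looked for among 4. Ifnar1 (ENSMUSG00000022967, chr16:91485238-91507441), the subunit that docks the kinase Tyk2, had 192 reads and FPKM 3.11 at week-0, and 86 reads and FPKM 2.28 at week-3. Its log2 ratio of -0.45 (-0.83 to -0.07) was below 0 but short of the limit. Ifnar2 (ENSMUSG00000022971, chr16:91372783-91405589), which docks Jak1, had 359 reads and FPKM 9.24, then 239 reads and FPKM 10.1, a log2 ratio of 0.12 (-0.12 to 0.36). No difference in Ifnar2 was detectable at this depth.

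Both chains of the interferon gamma receptor had intervals above no change, and 1 of them was past the limit. Ifngr1 (ENSMUSG00000020009, chr10:19591949-19610229), the ligand-binding chain, had 1065 reads and FPKM 40.2 at week-0, and 957 reads and FPKM 59.1 at week-3, a log2 ratio of 0.56 (0.43 to 0.68). Ifngr2 (ENSMUSG00000022965, chr16:91547072-91565169), the signalling chain, had 152 reads and FPKM 6.82 at week-0 and 206 reads and FPKM 15.1 at week-3. This is 2.22 times the week-0 level (log2 1.15, 0.84 to 1.46). Ifnar2, Ifnar1 and Ifngr2 are neighbours within chr16:91372783-91565169, so the highest and the lowest log2 ratio among the receptor genes came from the same locus. Of the tested markers of neutrophils and of monocytes, cells that carry the gamma receptor, 9 of 9 and 4 of 6 were higher at week-3. Of all genes tested, 10.5% were higher. The part of these cells in the values of Ifngr1 and Ifngr2 was not tested.

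Stat2 and the PARP9-DTX3L group act next. Stat2 (ENSMUSG00000040033, chr10:128270576-128292849) encodes the ISGF3 subunit used by type I interferon. It had 132 reads and FPKM 4.63 at week-0, and 35 reads and FPKM 2.01 at week-3, a ratio of 0.434 (log2 -1.21, -1.79 to -0.66). Parp9 and Dtx3l encode partners in 1 complex, an ADP-ribosyltransferase and a ubiquitin ligase that modify chromatin. Parp9 (ENSMUSG00000022906, chr16:35938470-35972605) had 95 reads and FPKM 2.42, then 28 reads and FPKM 1.17. Its log2 ratio was -1.05 (-1.72 to -0.43), the value nearest to the limit among the genes called lower. Its partner went the other way within its counting error, with 255 reads and FPKM 5.54 for Dtx3l at week-0 and 177 reads and FPKM 6.28 at week-3, a log2 ratio of 0.18 (-0.10 to 0.47). The genes lie head to head on opposite strands and overlap by 682 bases, and because strand was not stated for the counting, reads in the overlap cannot be assigned to 1 of them with certainty. Parp14, a related transferase in the same locus, had a log2 ratio of -0.55 (-1.10 to -0.02).

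Isg15 encodes a ubiquitin-like protein that is joined to other proteins and was lower at week-3. It (ENSMUSG00000035692, chr4:156199424-156200818) had 48 reads and FPKM 9.99 at week-0, and 12 reads and FPKM 4.08 at week-3, a log2 ratio of -1.29 (-2.34 to -0.36). Trim25 (ENSMUSG00000000275, chr11:88999376-89020293) encodes a ubiquitin and ISG15 ligase that activates the RNA sensor RIG-I. It had 816 reads and FPKM 22.1, then 160 reads and FPKM 7.08. This ratio of 0.321 (log2 -1.64, -1.89 to -1.39) has the narrowest interval among the genes called lower. Usp18, the protease that removes ISG15 and restrains the type I receptor, had only 31 and 14 reads, and its log2 ratio of -0.44 (-1.46 to 0.52) held no change within its interval.

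The cytosolic RNA sensors all had log2 ratios below 0 (against 47.8% of all genes), 1 of the 3 past the limit (against 14.9%). Ifih1 (ENSMUSG00000026896, chr2:62595798-62646255), which encodes MDA5, the sensor of long duplex RNA, had 118 reads and FPKM 1.64 at week-0, and 19 reads and FPKM 0.432 at week-3, a log2 ratio of -1.93 (-2.71 to -1.22). Ddx58, which encodes RIG-I, had 174 and 58 reads, and its log2 ratio of -0.88 (-1.33 to -0.44) lies just short of the limit. Dhx58, the regulator LGP2, had 125 and 61 reads, with a log2 ratio of -0.33 (-0.79 to 0.13).

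The enzymes and sensors that respond to foreign nucleic acid held the largest share of lower genes, 6 of 8 (75%, against 14.9% of all genes). The oligoadenylate synthetases Oas2 and Oas3 make the messenger that activates RNase L. Oas3 (ENSMUSG00000032661, chr5:120753098-120777661) had 130 reads and FPKM 2.44 at week-0, and 15 reads and FPKM 0.46 at week-3, a ratio of 0.189 (log2 -2.41, -3.28 to -1.63). Its neighbour Oas2 (ENSMUSG00000032690, chr5:120730333-120749853) had 65 reads and FPKM 1.25, then 13 reads and FPKM 0.408, a log2 ratio of -1.61 (-2.60 to -0.74). Oas1a in the same cluster had 161 and 71 reads and a log2 ratio of -0.47 (-0.90 to -0.06), but 57.6% of its 50-base windows also occur in transcripts of other genes (Oas1b and Oas1g), so its count is uncertain.

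The synthetase-like genes Oasl1 and Oasl2 form another cluster on chromosome 5, and both were lower. Oasl2 (ENSMUSG00000029561, chr5:114896936-114912234) had 155 reads and FPKM 2.27 at week-0, and 13 reads and FPKM 0.312 at week-3. At 0.137 times its week-0 level (log2 -2.87, -3.81 to -2.05), it fell furthest of the genes with reads in both libraries. Oasl1 (ENSMUSG00000041827, chr5:114923240-114937915), a translational repressor of Irf7, had 66 reads and FPKM 1.85, then 14 reads and FPKM 0.643, a log2 ratio of -1.53 (-2.47 to -0.68).

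Isg20 (ENSMUSG00000039236, chr7:78913424-78920396), an exonuclease of single-stranded RNA, had 201 reads and FPKM 8.36 at week-0, and 39 reads and FPKM 2.65 at week-3, a log2 ratio of -1.66 (-2.19 to -1.16). Zbp1 (ENSMUSG00000027514, chr2:173206612-173218923), a Z-nucleic acid sensor that can start necroptosis, had 44 reads and FPKM 1.43, then 12 reads and FPKM 0.639, a log2 ratio of -1.16 (-2.22 to -0.22). When edgeR's exact test assumed a coefficient of 0.1, Zbp1 was the only one of the 16 that was no longer called. Eif2ak2, which encodes the RNA-activated kinase PKR, stood apart from this group with 138 and 76 reads and a log2 ratio of -0.15 (-0.57 to 0.26).

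The genes of the IFIT proteins, which bind RNA that lacks the host cap methylation, and the Mx genes had few reads at this depth. In the GENCODE M21 annotation, Mx2 is a polymorphic pseudogene, and the other 42 genes of the list are protein coding. Ifit1 had 26 and 8 reads, and its log2 ratio of -0.99 lay at the limit with an interval that holds no change (-2.34 to 0.19). Ifit2 had 11 and 8 reads. Ifit3 had 2 reads and then 0, too few for a ratio. Mx1 had 13 and 3 reads and Mx2 had 11 and 3, with log2 ratios of -1.41 (-3.86 to 0.46) and -1.16 (-3.65 to 0.76), so a difference of the size seen in the OAS genes could not be shown here. Rsad2 (ENSMUSG00000020641, chr12:26442753-26456452), which encodes viperin, a radical SAM enzyme that makes a chain-terminating nucleotide, had enough reads. It had 71 reads and FPKM 2.31 at week-0, and 13 reads and FPKM 0.691 at week-3, a log2 ratio of -1.74 (-2.72 to -0.87).

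The membrane restriction factors were the most abundant genes of the list, and 0 of 4 were lower. With 14.9% of all genes lower, few calls are to be looked for among 4. The IFITM proteins hinder the fusion of virus and cell membranes. Ifitm2 (ENSMUSG00000060591, chr7:140954839-140955961) had 4876 reads and FPKM 1223 at week-0, and 2954 reads and FPKM 1212 at week-3. Its log2 ratio was -0.01, with an interval from -0.08 to 0.05, so these libraries held nearly the same level. Another gene model, Gm45717, overlaps 40.9% of its exon bases on the same strand, which limits how exactly its level is known. Ifitm3 (ENSMUSG00000025492, chr7:141009586-141010770) had 1404 reads and FPKM 325.8, then 1036 reads and FPKM 393.1, a log2 ratio of 0.27 (0.15 to 0.39). Ifitm1 (ENSMUSG00000025491, chr7:140967221-140969825), between them in the same cluster, had 1693 reads and FPKM 204.1 at week-0, and 2470 reads and FPKM 487 at week-3. This was 2.39 times its week-0 level (log2 1.25, 1.16 to 1.34), the highest ratio of the list. Bst2 (ENSMUSG00000046718, chr8:71534264-71537437) encodes tetherin, which holds budding virions on the cell and is also used as a marker of plasmacytoid dendritic cells. It had 944 reads and FPKM 194.4, then 473 reads and FPKM 159.3, a log2 ratio of -0.29 (-0.45 to -0.13).

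The GTPases known mainly as targets of interferon gamma act at the vacuoles of intracellular pathogens. Of these, 1 of 6 was lower (16.7%), near the 14.9% of all genes. Iigp1 (ENSMUSG00000054072, on chromosome 18) had 31 reads and FPKM 1.56 at week-0 and no read in the week-3 library. With the floor of 3 reads in place of 0, it was 6.32-fold lower, and its counting interval lay below a log2 ratio of -2.27. The related Igtp and Irgm1 had log2 ratios of -0.75 (-1.20 to -0.32) and -0.65 (-1.03 to -0.28), below 0 but within the limit. Of the guanylate-binding proteins on chromosome 3, Gbp2 was at -0.76 (-1.33 to -0.21) and Gbp7 at -0.18 (-0.50 to 0.14), while Gbp3 was at 0.64 (0.20 to 1.09). The 3 neighbours thus did not share a direction.

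Of the 5 remaining genes, 3 were lower (60%, against 14.9% of all genes). Ifi44 (ENSMUSG00000028037, chr3:151730922-151749960) had 66 reads and FPKM 1.38 at week-0 and no read in the week-3 library. With the same floor in place of 0, it was 13.5-fold lower, and its counting interval lay below a log2 ratio of -3.41. Rtp4 (ENSMUSG00000033355, chr16:23609919-23614222), a chaperone of chemosensory and opioid receptors that also inhibits viral replication, had 232 reads and FPKM 23.2, then 40 reads and FPKM 6.54. Its log2 ratio was -1.83 (-2.35 to -1.34), although a further gene model (Gm45338) on the same strand overlaps 13.9% of its exon bases. Xaf1 (ENSMUSG00000040483, chr11:72301629-72313733), an antagonist of the apoptosis inhibitor XIAP, had 156 reads and FPKM 4.25, then 39 reads and FPKM 1.74, a log2 ratio of -1.29 (-1.84 to -0.78). Ifi35 (417 and 211 reads) and Trim30a (155 and 86 reads) had log2 ratios of -0.27 (-0.52 to -0.03) and -0.14 (-0.54 to 0.25).

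**Figure D4:**
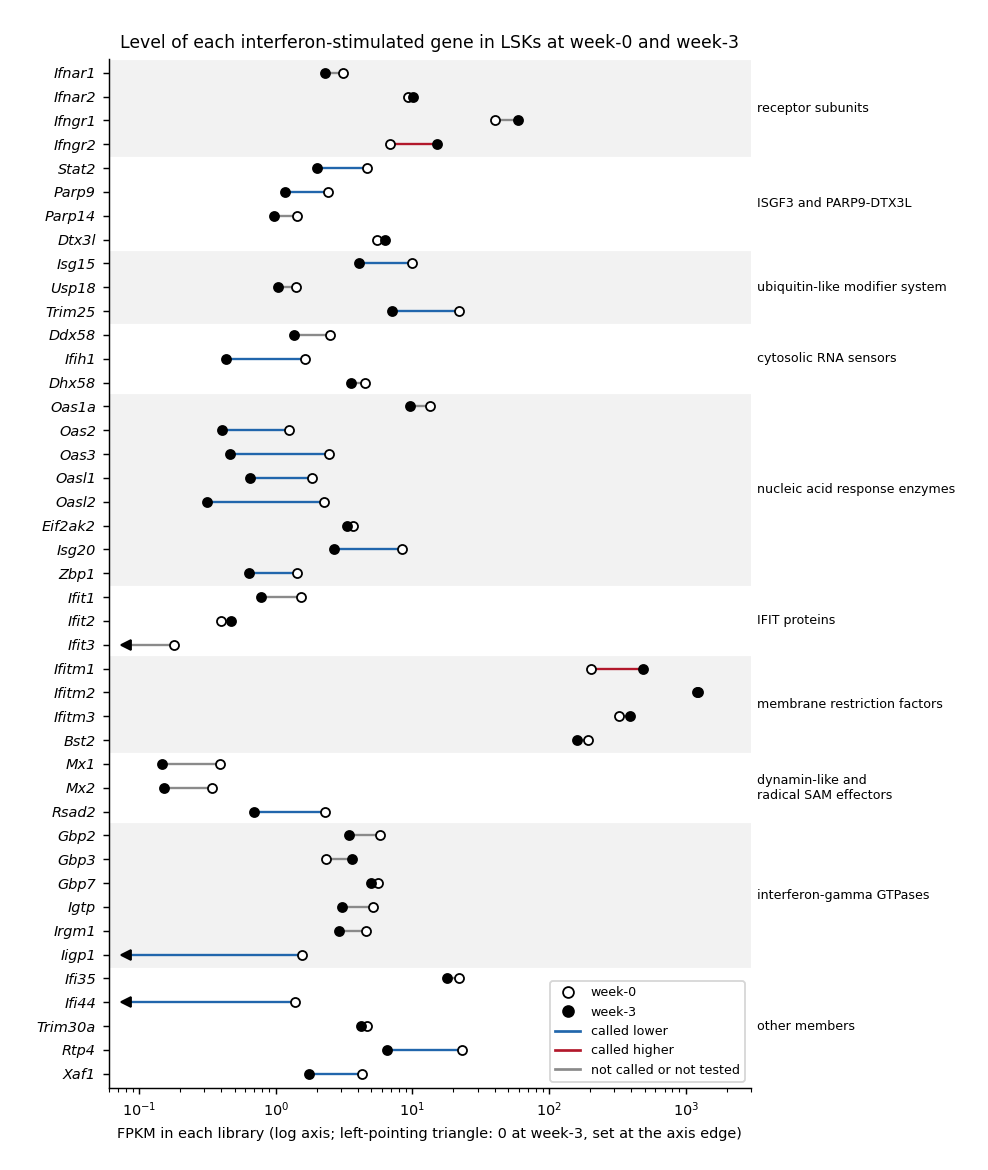
FPKM of each of the 43 genes at week-0 (open circle) and week-3 (filled circle) on a log axis, grouped by role, with the line coloured by call and triangles at the axis edge for genes at 0 at week-3. Of the OAS and OASL genes, 4 of 5 lie on blue lines, whereas Ifitm1, Ifitm2, Ifitm3 and Bst2 stay between 159.3 and 1223 in both libraries.

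For 8 of the 16 genes called lower, the whole interval lay under a ratio of 0.5 (Ifi44, Ifih1, Iigp1, Isg20, Oas3, Oasl2, Rtp4 and Trim25). Of the 24 genes called neither way, 9 had an interval below no change, 3 an interval above it (Gbp3, Ifitm3 and Ifngr1), and 12 an interval that held it. The genes lie in 8 clusters of neighbours at most 500 kb apart, which hold 22 of the 43. In the 2 OAS clusters on chromosome 5 together, 4 of 5 genes were lower, against 14.9% of all genes. No other cluster held more than 1 called gene.

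The genes that produce and relay the interferon signal were then counted. Interferon genes themselves were nearly silent in both libraries. All 21 together had 28 reads at week-0 (4.405 CPM) and 17 in the later library (4.374 CPM), with 17 and 15 of the genes at 0 reads. Ifna2 alone had enough reads to compare and was called lower, with 20 reads and then 1, an FPKM ratio of 0.0818 whose log2 interval ran from -8.99 to -0.97. Ifna1 had 0 and 7 reads and Ifna4 had 0 and 5. Ifnb1 and Ifng, which encode interferon beta and gamma, had 2 reads each in the earlier library and 0 in the later one.

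Of 5 signal transducers, 1 was lower (20%, near the 14.9% of all genes). This was Irf9, the DNA-binding subunit of ISGF3, with 398 reads and FPKM 7.3 at week-0 and 99 reads and FPKM 2.97 at week-3, a log2 ratio of -1.30. The kinases Jak1, Jak2 and Tyk2 had log2 ratios of -0.47, 0.03 and 0.17. Stat2 and Irf9, which act together in ISGF3, were thus both called lower.

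Of the 8 other interferon regulatory factors, 3 were lower (37.5%, against 14.9% of all genes) and 0 higher (against 10.5%). Irf7, which amplifies alpha interferon production and is itself interferon-inducible, had 227 reads and FPKM 5.56 at week-0 and 43 reads and FPKM 1.72 at week-3, a log2 ratio of -1.69. Irf1, a primary target of interferon gamma, had 1168 reads and FPKM 31.9, then 293 reads and FPKM 13.1, a log2 ratio of -1.29. Irf4, a lymphoid factor, had 42 reads and then 0. With the floor of 3 reads in place of 0, it was 8.56-fold lower, with a log2 interval below -2.74. Irf3 and Irf8 were above 0, with log2 ratios of 0.73 and 0.83, but short of the limit.

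Of the sensors and adaptors upstream of interferon production, 10 were tested. None of the 10 was called, against 14.9% of all genes called lower and 10.5% called higher, so few calls are to be looked for in a list of this size. A log2 ratio below 0 was found for 1 of the 10, against 47.8% of all genes. The 3 with the most reads were Tmem173, which encodes STING, with 472 and 533 reads and a log2 ratio of 0.88, Myd88 with 383 and 374 reads and 0.68, and Tbk1 with 184 and 129 reads and 0.20. Of 8 negative regulators, Socs1, which blocks Janus kinases, was lower (374 and 79 reads, log2 -1.53), and Pias4 was higher (102 and 162 reads, log2 1.38). These calls are 12.5% each way, near the shares of all genes.

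A further 50 interferon-stimulated genes outside the list had 44 rows tested, of which 12 were lower (27.3%, against 14.9% of all genes) and 3 higher (6.82%, against 10.5%). The median difference in log2(FPKM + 0.1) was -0.54. Ly6e, with the most reads of them, had 10687 and 7074 reads and a log2 ratio of 0.11, and Lgals9 had 2756 and 1137 reads and -0.57. Lgals3bp had 1349 and 506 reads and -0.71, and Ifi27 had 1320 and 223 reads and was lower at -1.86.

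**Figure D5:**
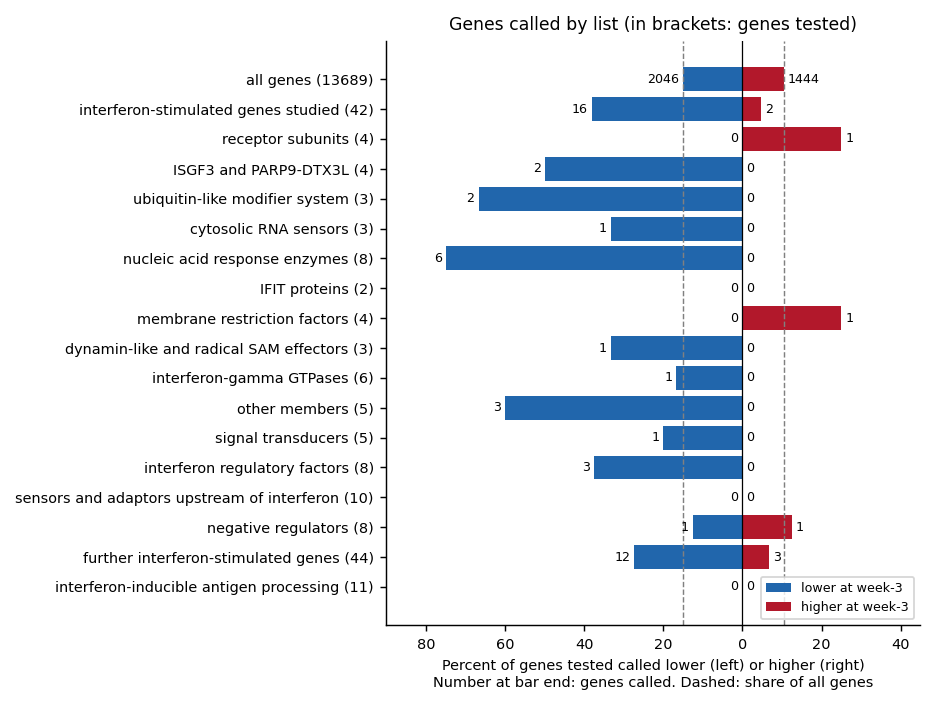
Percent of tested genes called lower (blue, to the left) and higher (red, to the right) at week-3, for all genes, for the interferon-stimulated genes by role and for the related lists, with the number called at each bar end and the shares of all genes as dashed lines. The nucleic acid response enzymes reach 75% lower, and the sensors upstream of interferon and the antigen processing genes show 0 calls.

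Markers of cell types that make or respond to interferon were read in the same libraries. For comparison, 14.9% of all genes tested were called lower and 10.5% higher, and 47.8% had log2 ratios below 0. Of 6 tested markers of plasmacytoid dendritic cells, the main makers of type I interferon, 5 were lower, and the 7 listed summed to 67.02 CPM at week-0 and 11.58 CPM at week-3. Ly6d and Cox6a2 carried this sum, with 235 and 87 of 426 reads at week-0 and 13 and 22 of 45 at week-3. Siglech, a defining gene of plasmacytoid dendritic cells, had only 21 and 3 reads, and Cd209d had 0 and 3. The 8 B cell markers summed to 77.56 and 60.98 CPM, a sum carried by Cd79b (314 of 493 reads, then 216 of 237). Of the 6 tested, 5 had log2 ratios below 0, and Cd79a (114 and 2 reads) and Ebf1 (15 and 1) were called lower. The 7 T cell markers summed to 56.17 and 28.04 CPM, with Lck at 313 of 357 reads and then 100 of 109. Of the 2 tested, Trac was called lower (27 and 5 reads). The 6 NK cell markers summed to 453.1 and 678.2 CPM, but Nkg7 alone held 2839 of their 2880 reads and then 2627 of 2636. Of the 4 tested, 3 had log2 ratios below 0, and Klrd1 was called lower (23 and 2 reads, log2 -2.81). The 7 erythroid markers went from 916.7 to 70.24 CPM. The 5 megakaryocyte markers summed to 132.8 and 201.7 CPM, a sum carried by Itga2b (554 and 645 reads). Of these 5, 3 had log2 ratios below 0, and Ppbp was called lower (28 and 2 reads, log2 -3.10). Of the 10 LSK and stem cell markers, 4 were lower (40%) and 1 higher (10%), with Flt3 at a log2 ratio of -2.02. The 1 called higher was Slamf1, with only 10 and 15 reads (log2 1.29, 0.04 to 2.61). The part of these shifts in the values of the interferon-stimulated genes was not tested. When the library totals were taken without the reads of all these marker lists, an alternative chosen after seeing the data, the same 16 genes were called lower and the same 2 higher. That step only rescales the totals and moved log2 ratios by -0.02. It takes away no reads that other cell types add to the genes studied, so it cannot show their part.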

How the data were processed

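BM LSKs of Scl/tTA-BA mice were sequenced as 1 library at week-0 and 1 at week-3, each from 3 mice. The authors made cDNA using a SMARTer Ultra Low Input kit and mapped trimmed paired reads with TopHat2 2.0.9 to mm10, per the submitters' processing notes and the methods. The deposited counts are whole reads per gene without normalization, and the deposited FPKM were scaled by exon length and by the reads on genes. The counting tool, its annotation and its strand setting are not given in the sources used here.

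Tables were joined by Ensembl identifier. Log2 ratios of FPKM carry exact 95% Clopper-Pearson intervals from the reads (scipy 1.17.1), which cover counting error only, since amplified reads are not independent molecules. A library at 0 was set to a floor of 3 reads. Genes with at least 10 reads over both libraries were compared, and medians used a pseudocount of 0.1. Overlaps and shared 50-base windows came from GENCODE M21, where 36 of the 43 genes have identical coordinates. Promoters came from RefSeq (GRCm38.p6). Exact tests and TMM used edgeR 4.0.16 and median-of-ratios factors DESeq2 1.42.0, in R 4.3.3.

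The 43 genes and all lists were chosen with earlier results of these data known. Every called gene, every receptor subunit and the 5 genes of highest mean FPKM were described in full. Of the related lists, up to 4 genes with most reads were to be named, and the others named there were added after their values were seen. Results for some genes of these lists are not reported here.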

Additional observations from a re-analysis of the deposited data

How the results depend on the processing

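With 1 library per time point, no replicate could be left out, and the calls measure depth rather than variation between mice. No paired analysis was possible because each time point has 1 library. The 16 genes called lower and the 2 called higher were the same genes under TMM scaling, median-of-ratios scaling and library totals without the marker lists, which moved log2 ratios by -0.08, -0.07 and -0.02. Of all genes, 16.4%, 16.2% and 15.3% were then called lower, in that order, and 8.96%, 9.16% and 10.1% higher. Requiring reads in both libraries left 14 lower (35%, against 11.5% of all genes), since Ifi44 and Iigp1 then drop out. Fold limits of 1.5 and 0.67 gave 20 lower (47.6%, against 21% of all genes) and 3 higher (against 20.4%). Of all genes, 2876 were then lower and 2797 higher. The assumed spread decided most. When edgeR's exact test took the biological coefficient of variation as 0.4, 2 of the genes were lower and 0 higher, and 195 and 52 of all genes. A pseudocount of 1 in place of 0.1 moved the median of the list to -0.47, since it shrinks ratios of weakly expressed genes. Reads on the list were 2513 and 2526 CPM at week-0 and week-3 with TMM scaling. Scaled by total reads and without the Ifitm genes, they were 1191 and 933.2 CPM. The 8 genes that share exon bases or transcript windows with other genes were left out in an alternative chosen after seeing the data. Then 15 of 35 were lower (42.9%, against 14.9% of all genes) and 2 higher (against 10.5%). For the 24 genes described in full, none of the 3 scalings changed a call.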

Other observations

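The tables list GO terms for each gene, and lower calls were counted for 6 of them. The terms were chosen after the values were seen, and a gene can carry several. The totals for each term include the genes studied, so the 2 counts are not independent. Of all genes tested, 14.9% were called lower. Of the genes studied that carry the term for defense response to virus, 11 of 23 were lower, against 33 of 184 genes (17.9%) with that term in all. For duplex RNA binding it was 5 of 9, against 12 of 57 (21.1%). For GTP binding it was 1 of 8, against 41 of 297 (13.8%). For the response to interferon-beta it was 2 of 10, against 4 of 26 (15.4%), and for the response to interferon-gamma 1 of 8, against 16 of 51 (31.4%). For ubiquitin-protein transferase activity it was 1 of 2, against 34 of 321 (10.6%).

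Antigen processing genes that interferon gamma induces had 0 calls among 11 in either direction, against 14.9% of all genes called lower and 10.5% higher. B2m, the invariant light chain of class I molecules, had 19981 reads and FPKM 3655 at week-0, and 6195 reads and FPKM 1853 at week-3, a log2 ratio of -0.98 just inside the limit. The immunoproteasome subunits Psmb8, Psmb9 and Psmb10 had log2 ratios of 0.55, 0.18 and 0.25, and the peptide transporter genes Tap1 and Tap2 had 0.12 and -0.15. B2m and the proteasome subunits thus had log2 ratios of opposite sign.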
